A study of Homo sapiens with 24 samples.

Results

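The 40 genes described here encode factors of ribosome biogenesis and the nucleolus. They were taken as a fixed list of names, matched to Ensembl identifiers through a gene name table, and followed gene by gene in RNA sequencing of colorectal cancer (CRC) cells with and without β-CATENIN. Of the 40 names, 39 matched 1 of the 58051 gene identifiers counted in every library. BOP1 was not matched and has no value here. The 39 genes were divided into 6 roles. Box C/D small nucleolar ribonucleoproteins (snoRNPs) had 3 members, box H/ACA snoRNPs had 3, nucleolar organisation had 6, RNA polymerase I had 2, assembly of the small ribosomal subunit had 14 and assembly of the large subunit had 11 matched of 12 listed.

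The cells were the established human CRC lines HT29, HCT116 and SW480. HT29 and SW480 carry mutant APC, whereas HCT116 has an activating mutation in CTNNB1 itself. In each line, 2 wild-type (WT) clones were set against 2 knock-out (KO) clones in which CRISPR/Cas9 had removed exon 7 of both CTNNB1 alleles with a shift of the reading frame. The WT clones had passed through the same CRISPR/Cas9 exposure and single-cell cloning but kept an intact gene, and no other agent distinguished the groups. HT29 had WT clones 11 and 40 and KO clones 28 and 38. HCT116 had WT clones 4 and 6 and KO clones 44 and 47, and SW480 had WT clones 4 and 5 and KO clones 17 and 21. Sequencing covered each clone in rounds A and B, which gave 24 libraries in all, 4 for each line and genotype. Because 2 libraries always came from 1 clone, a difference between genotypes rests on 2 clones against 2.

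Ribosomes are made in the nucleolus, where RNA polymerase I transcribes the ribosomal RNA precursor. Box C/D snoRNPs methylate this precursor, box H/ACA snoRNPs convert selected uridines to pseudouridine, and assembly factors then fold, cut and export the small and the large subunit separately. Many genes of this machinery are textbook targets of MYC, which is itself a textbook target of β-CATENIN and TCF/LEF factors in the intestinal epithelium.

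The libraries held between 22297049 and 29068378 reads in genes. All values below are normalized counts, that is, reads divided by a size factor set over all 24 libraries. CTNNB1 averaged 6021 ± 99.3 in WT and 299.8 ± 34.1 in KO cells of HT29 (mean ± SD, n = 4), 11918 ± 999.9 in WT and 218 ± 28.9 in KO cells of HCT116, and 46967 ± 4376 in WT and 1024 ± 229 in KO cells of SW480, and the WNT target AXIN2 was lower in every KO library than in every WT library of its line. Of 12 CTNNB1 and WNT target genes listed, 5 of 7 tested were called lower in HT29, 6 of 8 in HCT116 and 11 of 11 in SW480. The called values ran from LGR5 (-4.36) to ZNRF3 (-1.14) in HT29, from CTNNB1 (-5.77) to ZNRF3 (-0.64) in HCT116, and from NOTUM (-8.32) to TCF7 (-1.52) in SW480. Of 12 colorectal epithelial markers, between 6 and 11 had a mean of at least 10 in each of the 6 groups. Of 10 fibroblast markers 2 to 4 reached that mean, mostly ACTA2 and COL1A1, of 10 leukocyte markers 1 to 4, and of 5 endothelial markers 0 or 1, whereas the defining genes DCN, PTPRC and CDH5 did not in any group. In HT29, where CD14 and LYZ were expressed, the leukocyte markers summed to between 23411 and 27684 in WT and between 17729 and 31460 in KO libraries. In SW480, counts summed over 10 leukocyte markers lay between 53.3 and 72.8 (WT) or 213 and 288 (KO), and over 5 endothelial markers between 16.4 and 36.4 or 137 and 234. In HT29, 10 summed fibroblast markers lay between 23.3 and 51.9 (WT) or 121 and 1216 (KO), and the epithelial markers between 325837 and 466941 or 490867 and 784703. The part of these shifts in the results below was not tested. HT29 library KO 38B stood apart, because its values fell with exonic length across 14777 genes (Spearman's rho = -0.33), with a median log2 departure of 0.56 for the shortest 25% of genes and of -0.40 for the longest 25%. In the other 23 libraries rho ran from -0.40 (HCT116 WT 4A) to 0.32, and both medians were smaller in size. Results for HT29 are therefore also given without that library.

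The members spanned a wide range of levels. In WT libraries, NPM1, which encodes the nucleolar chaperone nucleophosmin, had the highest mean level per kilobase of exon in each line, at 7956 ± 812 normalized counts per kilobase in HT29 (SD, n = 4), 11003 ± 1482 in HCT116 and 8532 ± 749.6 in SW480. In SW480 its libraries did not overlap with those of the next gene, NCL, whereas NPM1 overlapped with FBL in HT29 and with NCL in HCT116. At the lower end stood DDX10, an RNA helicase of small subunit assembly, at 158 ± 31.6, 149 ± 11.6 and 134 ± 13.1 normalized counts per kilobase. PPAN was lower still, at 26.9 ± 6.88, 51.4 ± 5.47 and 13.9 ± 4.57, but 49.2% of its exonic bases are shared with the readthrough gene PPAN-P2RY11 and with P2RY11, so that its values are uncertain. NPM1 has processed pseudogenes, between which reads could be divided or lost. Between most neighbours in this order the WT libraries overlapped: only 4 of 38 steps in HT29, 4 in HCT116 and 6 in SW480 separated 1 gene from the next. The length used is that of all annotated exons of a gene together, 18059 bases for DDX10, so the order depends on the annotation. Undivided, DDX10 counted 2279 to 3357 in WT libraries of HT29, above BYSL at 1274 to 1750, which ranks higher per kilobase.

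**Figure D1:**
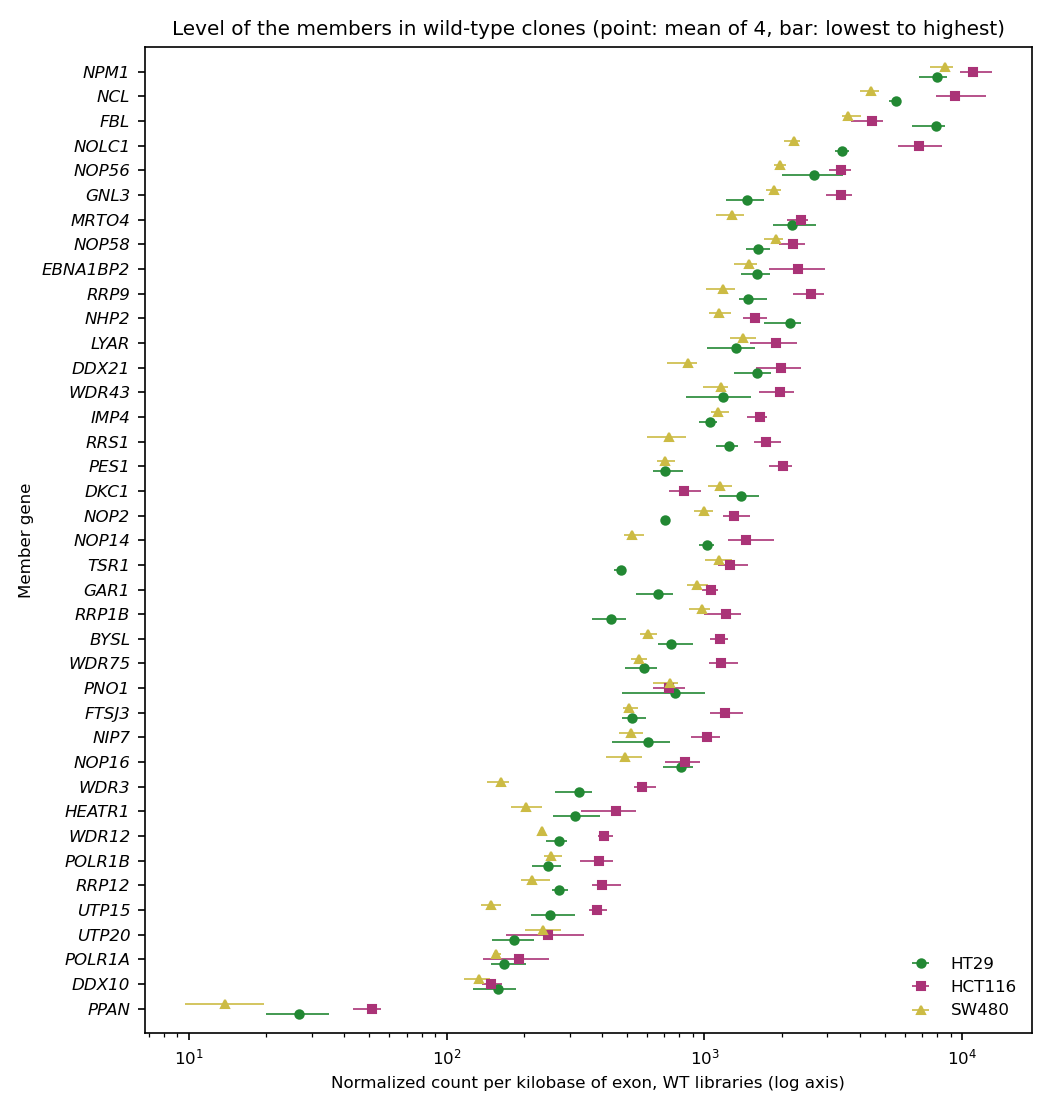
Level of each of the 39 members in the WT libraries of HT29, HCT116 and SW480, as normalized counts per kilobase of exon on a log axis. Points are means of 4 libraries and bars run from the lowest to the highest library. NPM1 lies at the top and PPAN at the bottom in all 3 lines.

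To ask whether loss of β-CATENIN altered expression of these genes, KO and WT libraries were compared within each line by limma on log2(value + 1), and a gene was called when its adjusted p was under 0.05 over all genes tested. All 39 members passed the filter on low values in each line. In HCT116, 16 of 39 members were called lower in KO cells, where 5.93% of the 15404 genes tested were called lower. In SW480, 20 of 39 were called lower against 22.1% of 16325 genes. As each group of 4 libraries is 2 clones in rounds A and B, the counts were also taken in 2 further fits. With the clone as a random effect, 5 members were called lower in HCT116 and 15 in SW480. Of all genes, called in either direction, that fit gave 1067 of 15404 and 5615 of 16325. With the rounds of a clone averaged, 0 members were called in HCT116 (19 at an unadjusted p under 0.05) and 7 in SW480. Of all genes in either direction, this gave 426 and 3789. In bulk RNA, less RNA per cell cannot be told apart from fewer cells that express a gene. In HT29, none was called lower by limma, where 0.476% of 14921 genes were, although 8 members were lower at an unadjusted p under 0.05. DESeq2 called 3 members lower in HT29, namely NCL, NOP58 and WDR12, and edgeR called none. No member was called higher in any line by limma, edgeR or DESeq2, and none was higher at an unadjusted p under 0.05 by limma. Of all genes, HT29 had 2.08% called higher, HCT116 8.05% and SW480 26.1%.

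The differences were small and lay mostly on one side. Over the 39 members, HT29 had a median log2 fold change of -0.20, HCT116 of -0.40 and SW480 of -0.23, against 0.03, -0.01 and -0.0042 over all genes tested. Thus, the median member stood at 87.0% of its WT level in HT29, at 75.9% in HCT116 and at 85.1% in SW480. No member changed by more than 1 on the log2 scale, and the lowest values were -0.74 for HEATR1 in HT29, -0.72 for UTP20 in HCT116 and -0.68 for NOP56 in SW480. Log2 fold changes were below 0 for 30 of 39 members in HT29, 38 in HCT116 and 38 in SW480, where 47%, 51.7% and 50.3% of all genes tested were below 0. The exceptions were PPAN in HCT116 and WDR3 in SW480. For 29 members the value was below 0 in all 3 lines. Every KO library lay below every WT library for 4 members in HT29 (NCL, NOP2, NOP58 and WDR12), 15 in HCT116 and 18 in SW480, compared with 4.71%, 9.61% and 20.9% of all genes tested. The reverse, every KO library above every WT library, held for PPAN in HCT116 alone, where the shares of all genes were 8.31%, 10.9% and 25.3% across the lines in the same order.

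**Figure D2:**
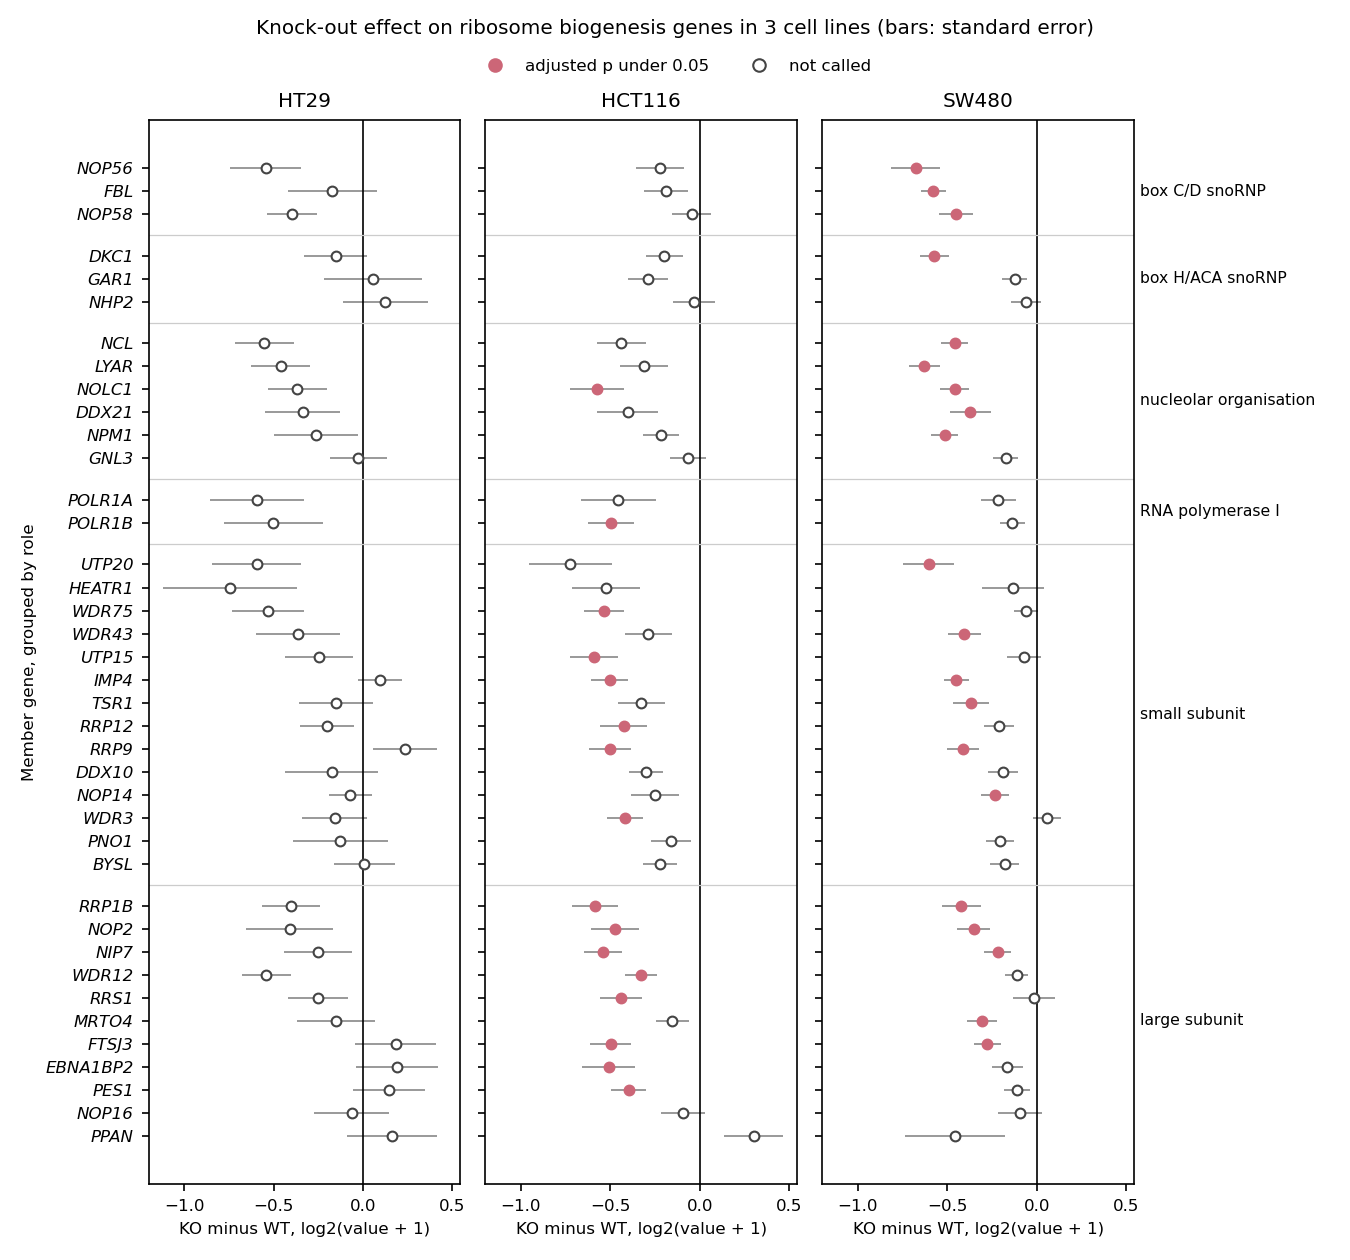
Log2 fold change (KO minus WT, log2(value + 1)) of each of the 39 members in HT29, HCT116 and SW480, grouped by role, with its standard error. Filled points mark the 16 members called in HCT116 and the 20 called in SW480 at an adjusted p under 0.05, and open points those not called. Nearly all points lie left of 0, and none of those in HT29 is filled.

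Which members passed the test differed between HCT116 and SW480. Both lists held 7 genes, FTSJ3, IMP4, NIP7, NOLC1, NOP2, RRP1B and RRP9, which are 43.8% of the HCT116 list and 35% of the SW480 list. A further 9 were called only in HCT116 and 13 only in SW480, but the difference between these 2 lines, tested itself, was called for no member. The remaining 10 members, BYSL, DDX10, GAR1, GNL3, HEATR1, NHP2, NOP16, PNO1, POLR1A and PPAN, were called in no line by limma. Across the 39 members, the log2 fold changes of HCT116 and SW480 had a Pearson's r of -0.09 and a Spearman's rho of -0.08. These values were 0.35 and 0.33 for HT29 and HCT116, and 0.20 and 0.21 for HT29 and SW480. Genes are not independent replicates, and the libraries of 1 line contribute their depth and length trends to every gene.

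Library by library, the KO libraries of HCT116 and SW480 lay below the WT libraries as a set. Relative to the mean of the WT libraries of the line, the median log2 departure of the members in HCT116 was -0.10 and -0.13 in WT clone 4, 0.03 and 0.19 in WT clone 6, -0.49 and -0.43 in KO clone 44, and -0.30 and -0.21 in KO clone 47. In SW480 it was 0.12 and 0.03 in WT clone 4, -0.15 and 0.00 in WT clone 5, -0.27 and -0.24 in KO clone 17, and -0.40 and -0.25 in KO clone 21. In neither line did KO and WT libraries overlap. In HT29 it was 0.04 and 0.11 in WT clone 11, 0.02 and -0.14 in WT clone 40, -0.30 and -0.18 in KO clone 28, and -0.16 and -0.06 in KO clone 38. There, KO library 38B lay above WT library 40B. In that library the members spread far more than in any other, as the quartiles plotted for each library show.

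**Figure D3:**
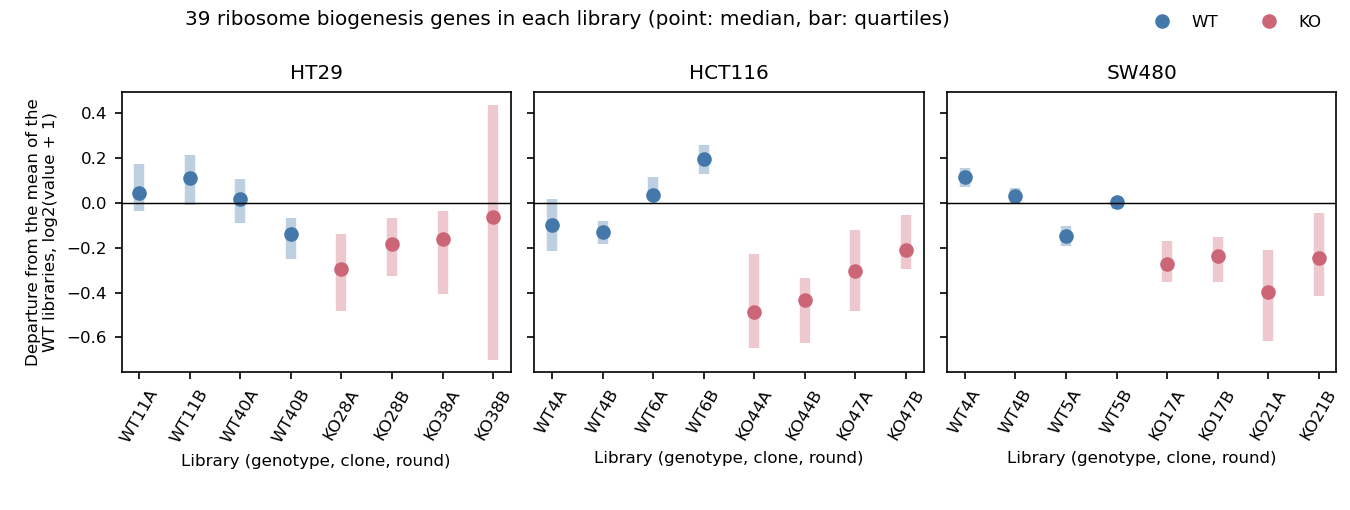
Departure of the 39 members from the mean of the WT libraries of their line, on the log2(value + 1) scale, for each of the 24 libraries. Points are medians over members and bars run between the quartiles, blue for WT and red for KO. KO points lie below all WT points in HCT116 and SW480, and KO 38B of HT29 has the longest bar.

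The core proteins of box C/D snoRNPs were called lower in SW480 in all 3 cases, where 22.1% of all genes tested were called lower. NOP56, a scaffold protein of these particles, counted 10291 and 9914 in WT clone 4, 9176 and 9658 in WT clone 5, 7209 and 7574 in KO clone 17 and 4835 and 5252 in KO clone 21. All KO libraries lay below all WT libraries, and clone 21 lay below clone 17 (log2 fold change -0.68 ± 0.14, adjusted p = 0.00246). FBL encodes fibrillarin, the methyltransferase of the particle. Its counts in SW480 were 8629 and 7602 in WT clone 4, 7335 and 7295 in WT clone 5, 5020.0 and 5326 in KO clone 17 and 5008 and 5289.7 in KO clone 21, so that the groups were well apart and the KO clones overlapped (log2 fold change -0.58 ± 0.07, adjusted p = 6.88e-05). NOP58, the partner of NOP56, ranged from 5567 to 6594 in WT and 3842 to 5159 in KO libraries of SW480 (-0.45 ± 0.09, adjusted p = 0.00272). None of the 3 was called in HCT116, where the log2 fold changes were -0.22 for NOP56, -0.19 for FBL and -0.04 for NOP58. In HT29, NOP56 counted 14216 and 17074 in WT clone 11, 11614 and 9920.0 in WT clone 40, 7748 and 8008 in KO clone 28 and 9749 and 10209.8 in KO clone 38. The ranges overlapped narrowly there, with KO 38B above WT 40B (-0.54 ± 0.20, adjusted p = 0.21). FBL in HT29 counted 13678 and 18122 in WT clone 11, 17577 and 18316 in WT clone 40, 14183 and 12984 in KO clone 28 and 10940.4 and 24558 in KO clone 38. KO library 38B was the highest of all 8 for FBL, and without it the log2 fold change was -0.41 in place of -0.17 (adjusted p = 0.216 and 0.756).

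Of the box H/ACA proteins, DKC1 was called lower in SW480 only. DKC1 encodes dyskerin, the pseudouridine synthase of these particles, and ranged from 9463 to 11719 in WT and 6628 to 7836 in KO libraries of SW480 (-0.57 ± 0.08, adjusted p = 0.000228). Its log2 fold change was -0.20 in HCT116 and -0.15 in HT29. The partner proteins GAR1 and NHP2 were not called in any line, with log2 fold changes of -0.12 and -0.06 in SW480, -0.29 and -0.03 in HCT116, and 0.05 and 0.12 in HT29. Of the exonic bases of NHP2, 28.05% are shared with RMND5B on the other strand, and the counting did not separate strands.

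Among the 6 genes of nucleolar organisation, 5 were called lower in SW480, 1 in HCT116 and none in HT29. Of all genes tested, 22.1%, 5.93% and 0.476% were called lower in these lines. NPM1 counted 76284 and 74349 in WT clone 4, 62209 and 70791 in WT clone 5, 48415 and 49895 in KO clone 17 and 47040.4 and 52857 in KO clone 21 of SW480, with no overlap (-0.51 ± 0.08, adjusted p = 0.000281). NCL encodes nucleolin, an abundant RNA-binding protein of the nucleolus. It counted 42460.5 and 40237 in WT clone 4, 35774 and 39483 in WT clone 5, 29029 and 29379 in KO clone 17 and 25743 and 30758 in KO clone 21 of SW480, which again separated the groups (-0.46 ± 0.08, adjusted p = 0.000629). LYAR, a nucleolar zinc finger protein that promotes rRNA processing, counted 3659 and 3201 in WT clone 4, 2899.6 and 3253 in WT clone 5, 2210.4 and 2212 in KO clone 17 and 1859 and 2129 in KO clone 21. Its log2 fold change in SW480 was -0.63 ± 0.09, adjusted p = 0.000187. NOLC1, a chaperone of snoRNPs between nucleolus and Cajal bodies, was called in both SW480 (-0.46 ± 0.08, adjusted p = 0.00098) and HCT116. In HCT116 it counted 22365 and 25560.2 in WT clone 4, 26781 and 33068 in WT clone 6, 14617 and 16354 in KO clone 44 and 18669 and 22986 in KO clone 47. There the ranges overlapped in 1 place, KO 47B above WT 4A (-0.58 ± 0.15, adjusted p = 0.0273). DDX21, a helicase that links RNA polymerase I transcription with rRNA processing, was the remaining call in SW480 (-0.37 ± 0.11, adjusted p = 0.0208). GNL3, or nucleostemin, a GTP-binding protein, was not called by limma (-0.17 ± 0.07, adjusted p = 0.0589), but edgeR and DESeq2 called it lower in SW480. In HT29 and HCT116, LYAR had log2 fold changes of -0.46 and -0.31, DDX21 of -0.34 and -0.40, and GNL3 of -0.03 and -0.07, none of them called.

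NPM1 and NCL were not called in HCT116 and HT29 by limma. In HCT116, NCL counted 70563 and 72069.9 in WT clone 4, 82836 and 109976 in WT clone 6, 56844 and 56762 in KO clone 44 and 60637 and 69965 in KO clone 47. Every KO library was below every WT library, but WT 6B lay far above the other WT libraries (-0.44 ± 0.14, adjusted p = 0.0549), and with the round as a block NCL was called (adjusted p = 0.046). Both edgeR and DESeq2 also called NCL lower in HCT116. NPM1 counted 83141 and 81060.2 in WT clone 4, 93617 and 107979 in WT clone 6, 78276 and 71579 in KO clone 44 and 81156 and 82083 in KO clone 47 (-0.22 ± 0.10, adjusted p = 0.183). In HT29, NCL counted 49663 and 50390.1 in WT clone 11, 51129 and 46469.8 in WT clone 40, 38311 and 40390.0 in KO clone 28 and 30829 and 27006 in KO clone 38. The groups did not overlap, and clone 38 was lower than clone 28 (-0.55 ± 0.16, adjusted p = 0.131). NPM1 in HT29 counted 56606 and 67681 in WT clone 11, 72547 and 67659 in WT clone 40, 45136 and 45506 in KO clone 28 and 49714 and 89158 in KO clone 38. The 3 other KO libraries were lower than all WT libraries, and 38B was higher than all of them (-0.26 ± 0.23, adjusted p = 0.6). Without 38B the log2 fold change of NPM1 was -0.49 (adjusted p = 0.0888).

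Of the 2 largest subunits of RNA polymerase I, neither was called in SW480 or HT29 by limma. POLR1A, the catalytic subunit, counted 3032 and 3214 in WT clone 4, 2981 and 3073 in WT clone 5, 3113 and 2821 in KO clone 17 and 2215 and 2533 in KO clone 21 there. Library KO 17A lay within the WT range and the other 3 KO libraries below it (-0.21 ± 0.10, adjusted p = 0.0951). In HCT116, POLR1A counted 2729 and 3881 in WT clone 4, 3536 and 4931 in WT clone 6, 2041 and 2739 in KO clone 44 and 2426 and 3854 in KO clone 47. In all 4 clones the round A library was below the round B library, and the genotypes overlapped (-0.46 ± 0.21, adjusted p = 0.175). POLR1B, the second largest subunit, was called lower in HCT116, with 2956 to 3979 in WT and 2120.3 to 2939 in KO libraries (-0.49 ± 0.13, adjusted p = 0.0261). In HT29, POLR1A counted 4013 and 2937 in WT clone 11, 3213 and 3010.2 in WT clone 40, 2072 and 2683 in KO clone 28 and 3056 and 1300.4 in KO clone 38 (-0.59 ± 0.26, adjusted p = 0.313). KO library 38B was the lowest of the 8 by a wide margin. POLR1A has 19694 exonic bases, the most of all members, and without 38B its log2 fold change was -0.35 (adjusted p = 0.362).

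Among 14 factors of the small subunit, 6 were called lower in HCT116, 6 in SW480 and none in HT29. Of all genes tested, 5.93%, 22.1% and 0.476% were called lower in these lines. IMP4 and RRP9 were called in both HCT116 and SW480. UTP15, a component of the UTP-A complex that binds the nascent precursor, had the largest called difference in HCT116. It counted 2255 and 2256 in WT clone 4, 2540.1 and 2659.8 in WT clone 6, 1334 and 1462 in KO clone 44 and 1674 and 2039 in KO clone 47. The groups were apart, with clone 44 lower than clone 47 (-0.59 ± 0.14, adjusted p = 0.015). In SW480, UTP15 ranged from 859 to 1025 in WT and 760.1 to 990.5 in KO libraries (-0.07 ± 0.09, adjusted p = 0.551). The other calls in HCT116 were RRP12 (-0.43), WDR3 (-0.42) and WDR75 (-0.54), which act in early processing and export of the pre-40S particle. UTP20, a very large scaffold protein of the small subunit processome, was called in SW480, where it counted 2434 and 2783 in WT clone 4, 2024 and 2239 in WT clone 5, 1839.8 and 1808 in KO clone 17 and 1236 and 1404 in KO clone 21 (-0.60 ± 0.14, adjusted p = 0.00572). It was lower in KO clone 21 than in KO clone 17, and both lay below WT. In HCT116, UTP20 had the lowest log2 fold change of all members but was not called (-0.72 ± 0.23, adjusted p = 0.0612). It counted 1704 and 2276 in WT clone 4, 2550.3 and 3409.9 in WT clone 6, 1119 and 1491 in KO clone 44 and 1267 and 2136 in KO clone 47 there, with the round A library below the round B library in all 4 clones. With the round as a block, UTP20 and HEATR1 were called in HCT116, and DESeq2 also called UTP20 there. Also called in SW480 were WDR43, another UTP-A protein (-0.40), TSR1, a GTPase-like factor of the pre-40S particle (-0.37), and NOP14, a nucleolar processome protein (-0.23). Part of TSR1 and of NOP14 is shared with a gene on the other strand (23.9% and 20.7% of exonic bases). The remaining members of this role were called in no line by limma without the block. DESeq2 and edgeR (TMM scaling) called DDX10 lower in HCT116 and SW480, and PNO1 lower in SW480. The helicase DDX10 had log2 fold changes of -0.18, -0.30 and -0.19 in HT29, HCT116 and SW480 respectively. For BYSL, or bystin, these were 0.01, -0.23 and -0.18, and for PNO1, its partner on the pre-40S particle, -0.13, -0.16 and -0.20.

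In HT29, the largest differences among the small subunit factors were those of HEATR1 and UTP20, both encoded by long transcripts. HEATR1, a scaffold protein needed for RNA polymerase I transcription and early processing, counted 3566 and 2352 in WT clone 11, 2991 and 2474 in WT clone 40, 1654 and 2396 in KO clone 28 and 2662 and 747 in KO clone 38. Of its exonic bases, 23.1% are shared with other genes. KO library 38B had less than any other, and KO 28B and KO 38A lay within the WT range (-0.74 ± 0.38, adjusted p = 0.366). UTP20 counted 2186 and 1506 in WT clone 11, 2026 and 1631 in WT clone 40, 1080.2 and 1437 in KO clone 28 and 1681 and 799.9 in KO clone 38 (-0.60 ± 0.25, adjusted p = 0.281). Without 38B these log2 fold changes were -0.36 for HEATR1 and -0.40 for UTP20. Across the 39 members, the log2 fold changes of HT29 had a Spearman's rho of -0.56 with exonic length, and of -0.27 without that library. It was -0.41 in HCT116 and -0.03 in SW480. Without 38B, 34 of 39 members were below 0 in HT29, their median was -0.23, and again none was called by limma, while 9 had an unadjusted p under 0.05. When each library's trend with length was removed, an alternative chosen after seeing the data, 0 members were called in HT29, 20 in HCT116 and 25 in SW480, including all 16 and all 20 called before. Over all genes in either direction, that fit called 465 of 14777, 2648 of 15267 and 7933 of 16161, beside 382, 2154 and 7857 before.

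Of 11 factors of the large subunit with a value, 8 were called lower in HCT116, 5 in SW480 and none in HT29, beside 5.93%, 22.1% and 0.476% of all genes tested. RRP1B, a nucleolar partner of protein phosphatase 1, counted 5725 and 6397 in WT clone 4, 7786 and 7980.2 in WT clone 6, 4286 and 4200.3 in KO clone 44 and 4525 and 5489.6 in KO clone 47 of HCT116. All KO libraries lay below the lowest WT library (-0.59 ± 0.13, adjusted p = 0.0127). In SW480, RRP1B ranged from 5006 to 6023 in WT and 3475 to 4819.6 in KO libraries (-0.42 ± 0.11, adjusted p = 0.0096). NIP7, which binds the pre-60S particle, counted 4724 and 4199.6 in WT clone 4, 5083 and 5431 in WT clone 6, 3178 and 3042 in KO clone 44 and 3582 and 3522 in KO clone 47 of HCT116. It was clearly separated (-0.54 ± 0.11, adjusted p = 0.00646), and in SW480 it was called with a smaller value (-0.22 ± 0.08, adjusted p = 0.0376). Of its exonic bases, 18.4% are shared with COG8 on the other strand. PES1 and WDR12, which form a complex with BOP1, were called in HCT116 (-0.40 and -0.33) and not in SW480 (-0.11 and -0.11). EBNA1BP2 (-0.51), the methyltransferases FTSJ3 (-0.50) and NOP2 (-0.48), and RRS1, which helps to place the 5S RNP (-0.44), made up the remaining calls in HCT116. In SW480, MRTO4, a relative of the ribosomal stalk protein P0 (-0.30), NOP2 (-0.35) and FTSJ3 (-0.28) were also called. In HT29, 4 of 11 values were above 0, for EBNA1BP2, FTSJ3, PES1 and PPAN, and 7 were below. NOP16 and PPAN were called in no line, with -0.06, -0.09 and -0.09 for NOP16 and 0.16, 0.30 and -0.45 for PPAN in the same order of lines.

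Next, the KO effects were compared between lines in 1 fit over all 24 libraries. Between HT29 and HCT116, the effect differed for 2 of 39 members, both with the higher value in HT29, where 4.27% of 18609 genes tested were called with a higher and 2.99% with a lower value in HT29. Between HT29 and SW480, it differed for 3 members, 2 with the higher and 1 with the lower value in HT29, against 7.74% and 8.07% of all genes. Between HCT116 and SW480, limma, edgeR and DESeq2 called no member, while 7 members had an unadjusted p under 0.05 by limma, and 5.94% of all genes were called with a higher and 7.29% with a lower value in HCT116. In each comparison, the members were thus called at shares near or below those of all genes. These comparisons share libraries and are not independent of each other.

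IMP4 and RRP9, both proteins of the U3 snoRNP that prepares the small subunit rRNA, differed in both comparisons with HT29. In HT29, IMP4 counted 3194 and 3776 in WT clone 11, 3753 and 3419.8 in WT clone 40, 3726 and 3887 in KO clone 28 and 3628 and 3845 in KO clone 38. The genotypes overlapped, and the log2 fold change was 0.10. In HCT116, IMP4 counted 5612 and 4900.2 in WT clone 4, 5863 and 5825 in WT clone 6, 3577 and 3558 in KO clone 44 and 4241 and 4308 in KO clone 47, and in SW480 4199.6 and 3764 in WT clone 4, 3565 and 3722 in WT clone 5, 2793 and 2839.6 in KO clone 17 and 2606 and 2907 in KO clone 21. In both lines every KO library lay below every WT library (-0.50 ± 0.10, adjusted p = 0.00903 in HCT116 and -0.45 ± 0.07, adjusted p = 0.000396 in SW480). The effect in HT29 exceeded that in HCT116 by 0.60 ± 0.13, adjusted p = 0.00585, and that in SW480 by 0.55 ± 0.13, adjusted p = 0.00502. RRP9 counted 2157 and 2695 in WT clone 11, 2099 and 2139.6 in WT clone 40, 2326 and 2372 in KO clone 28 and 2520.3 and 3604 in KO clone 38 of HT29, where KO library 38B was the highest. In HCT116 it counted 4166 and 3413 in WT clone 4, 3935 and 4476 in WT clone 6, 2689 and 2469.9 in KO clone 44 and 3305 and 2834 in KO clone 47, and in SW480 2019 and 1960.0 in WT clone 4, 1558 and 1759 in WT clone 5, 1271 and 1430.3 in KO clone 17 and 1375 and 1394 in KO clone 21, with no overlap between genotypes in either. The difference of effects was 0.74 ± 0.19, adjusted p = 0.02, from HCT116 and 0.64 ± 0.19, adjusted p = 0.0232, from SW480. Without library 38B it was 0.59 and 0.50, and it stayed past the threshold (adjusted p = 0.0256 and 0.037 by limma).

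WDR12 showed the opposite order. It counted 2791 and 2815 in WT clone 11, 2516 and 2343 in WT clone 40, 1753 and 1903 in KO clone 28 and 1613 and 1921 in KO clone 38 of HT29, where the groups were apart but WDR12 was not called by limma (-0.54 ± 0.14, adjusted p = 0.0825). In SW480 it counted 2274 and 2259 in WT clone 4, 2202 and 2276 in WT clone 5, 1959 and 2010.2 in KO clone 17 and 2127 and 2262 in KO clone 21, with overlapping groups. The effect in HT29 minus that in SW480 was -0.43 ± 0.13, adjusted p = 0.0213, and with the trend of each library with length removed the adjusted p was 0.278. FTSJ3, a methyltransferase of large subunit assembly, came next in order of adjusted p without being called (HT29 minus HCT116, 0.68 ± 0.22, adjusted p = 0.0644). In HT29 it counted 2611 and 3101 in WT clone 11, 2491 and 2743 in WT clone 40, 2313 and 2403 in KO clone 28 and 3862 and 4277 in KO clone 38. KO clone 38 lay above all WT libraries and KO clone 28 below them. None of the called differences between lines was called when the rounds of a clone were averaged, or with the clone as a random effect.

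**Figure D4:**
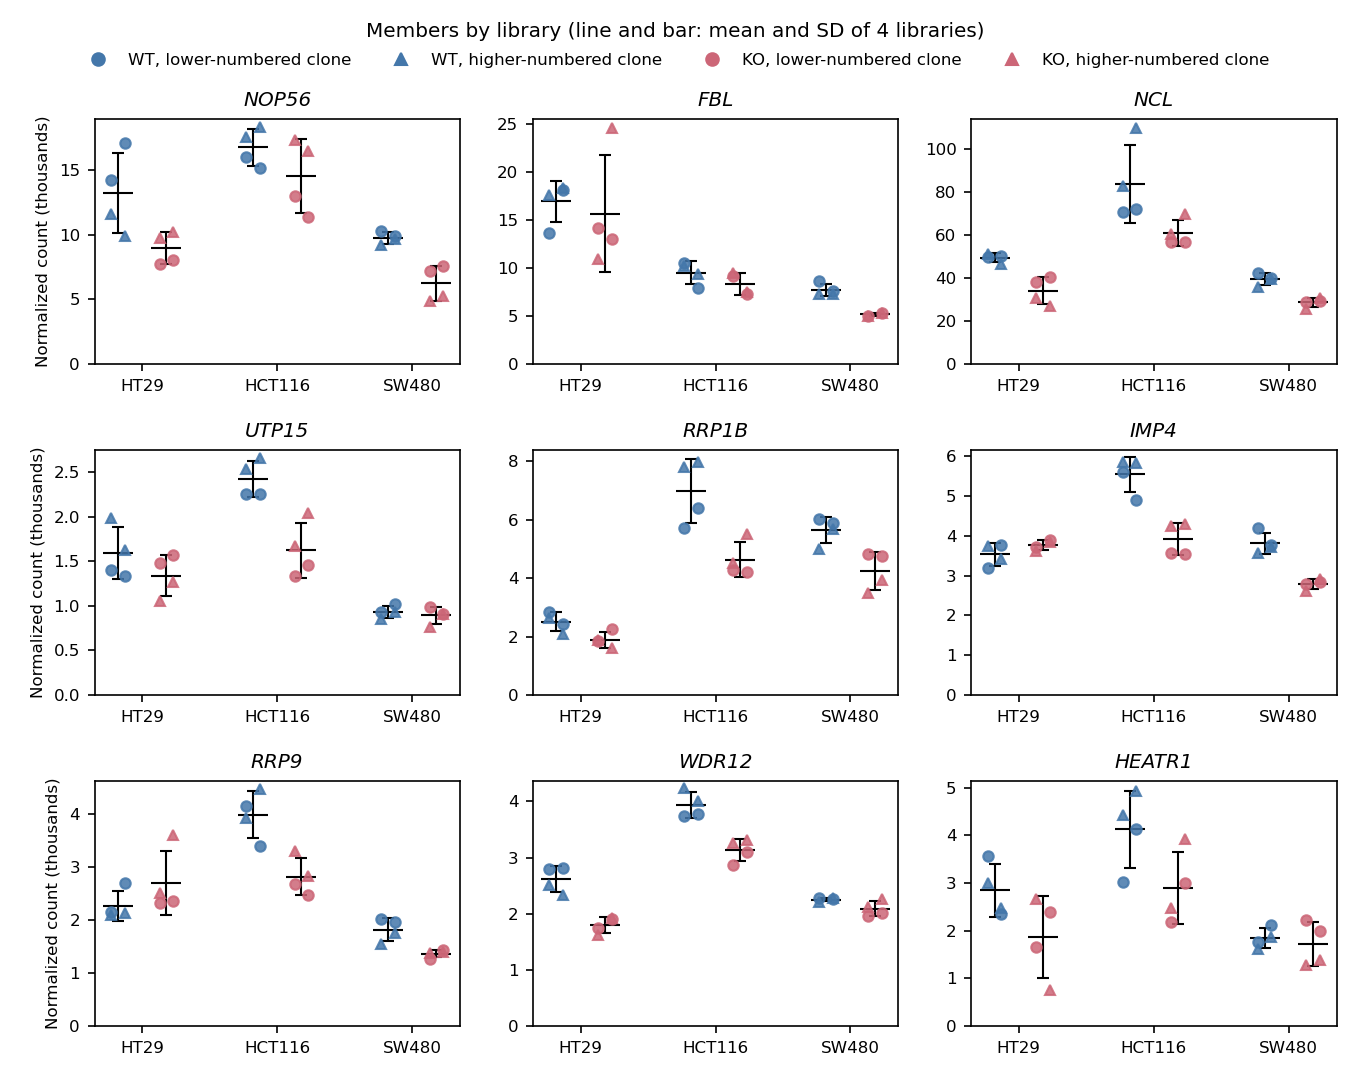
Normalized counts, divided by 1000, of 9 members in each library of HT29, HCT116 and SW480, with WT in blue and KO in red. Circles and triangles mark the lower- and the higher-numbered clone of each genotype, and black lines and bars the mean and SD of 4 libraries. IMP4 and RRP9 fall in KO libraries of HCT116 and SW480 but not in those of HT29.

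Clones of the same genotype were then compared, to see how large differences are without a change of genotype. In HCT116, WT clone 4 had lower values than WT clone 6 for 38 of 39 members, with a median difference of -0.23 on the log2 scale against -0.02 over all genes. No single member was called by limma or edgeR, and 13 had an unadjusted p under 0.05, where 1.25% of all genes were called higher and 1.36% lower. KO clone 44 had lower values than KO clone 47 for 36 of 39 members (median -0.22), with NOP56 called (-0.48 ± 0.11, adjusted p = 0.0297), where 3.56% of all genes were higher and 3.6% lower. In SW480, WT clone 4 had higher values than WT clone 5 for 37 of 39 members (median 0.15), of which limma called none, edgeR 1 and an unadjusted p under 0.05 held for 10, where limma called 3.99% of all genes higher and 4.89% lower. KO clone 17 differed from KO clone 21 in 7 called members, where 12.7% of all genes were called higher and 15.3% lower in clone 17. HEATR1 (0.67 ± 0.10, adjusted p = 0.000153), NOP56, UTP20, RRP1B, POLR1A and TSR1 were higher in clone 17, and NOP16 was lower. In HT29, PNO1 was higher in WT clone 11 than in WT clone 40 (0.85 ± 0.19, adjusted p = 0.0333), where 4.94% of all genes were higher and 4.08% lower. WDR75 was higher in KO clone 28 than in KO clone 38, and DDX10 and FTSJ3 were lower, where 8.87% of all genes were higher and 7.18% lower.

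Set against the mean of both WT clones, each KO clone had values below 0 for most members. These comparisons share their WT libraries. In HCT116, clone 44 was lower for 37 members, of which 25 were called, and clone 47 for 35, of which 9 were called, where 12.6% and 6.73% of all genes were called lower. In SW480, clone 17 was lower for 36 members, of which 27 were called, and clone 21 for 35, of which 23 were called, against 26% and 27.6% of all genes. In HT29, clone 28 was lower for 36 members, of which only NOP56 was called, and clone 38 for 24. In clone 38, NCL, NOP58, WDR12 and WDR75 were called lower and FTSJ3 higher. Of all genes, 3.34% were called lower in clone 28, and 8.83% lower and 12.5% higher in clone 38.

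The calls in HCT116 rested on particular clones. Without KO clone 44, or without WT clone 6, no member was called by limma, with 15 and 14 at an unadjusted p under 0.05, and without KO clone 47 or WT clone 4 the counts were 22 and 14. Of all genes, called in either direction, these fits in the same order gave 1226 of 14936, 963 of 15029, 2804 of 14958 and 1597 of 14857. A clone left alone in its group is here assumed to vary like the others. In SW480 the counts were 20 and 21 without KO clone 17 or 21, and 10 and 23 without WT clone 4 or 5. Of all genes in either direction, 7942 of 15590, 7247 of 15633, 5434 of 15703 and 6079 of 15691 were called there. The members called in SW480 with averaged rounds were DKC1, FBL, IMP4, LYAR, NCL, NOLC1 and NPM1. Those called in HCT116 with the clone as a random effect were IMP4, NIP7, RRP1B, UTP15 and WDR75.

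MYC, which controls transcription of many ribosome biogenesis genes, was not a member and was measured beside them. In SW480, MYC counted 6469 and 6387 in WT clone 4, 5532 and 6045 in WT clone 5, 3228 and 3643 in KO clone 17 and 3399.8 and 3758 in KO clone 21. The groups were far apart (-0.80 ± 0.08, adjusted p = 1.12e-05). In HCT116 it counted 10208 and 10627 in WT clone 4, 14782 and 13919 in WT clone 6, 7436 and 7943 in KO clone 44 and 9927 and 9825 in KO clone 47 (-0.49 ± 0.15, adjusted p = 0.0449). The genotypes were apart, but WT clone 6 lay well above WT clone 4, and with the round as a block MYC was not called (adjusted p = 0.0515). In HT29 it counted 6617 and 6181 in WT clone 11, 7664 and 6375 in WT clone 40, 6123 and 6094 in KO clone 28 and 8519.8 and 5046 in KO clone 38, with overlapping groups (-0.08 ± 0.18, adjusted p = 0.85). The effect on MYC was higher in HT29 than in SW480 by 0.72 ± 0.21, adjusted p = 0.0177. The 4 clones of HCT116 had the same order for MYC and for the members: mean MYC counts were 14350.5 in WT clone 6, 10418 in WT clone 4, 9876 in KO clone 47 and 7689 in KO clone 44, and the summed counts of the members were 448206, 363162, 341214 and 296824. In HT29 the order differed, since MYC was highest in WT clone 40 (7019.7) and second in KO clone 38 (6783), while the members summed to 281634 in WT clone 11, 279378 in WT clone 40, 222058 in KO clone 28 and 246915 in KO clone 38. In SW480, MYC averaged 6428 in WT clone 4, 5789 in WT clone 5, 3436 in KO clone 17 and 3579 in KO clone 21, and the members summed to 258922, 233944, 189080 and 181343, so that the KO clones had opposite orders. The part of MYC in the results for the members was not tested.

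Of the 21 proliferation genes measured as context, 6 were called lower and none higher in SW480 by limma, 3 lower and 1 higher in HCT116, and none in HT29, with medians of -0.23, -0.05 and -0.28. By comparison, 22.1% of all genes were called lower and 26.1% higher in SW480, 5.93% and 8.05% in HCT116, and 0.476% and 2.08% in HT29. In SW480 the libraries of KO clone 21 had median departures of -0.57 and -0.31 from the WT mean and those of KO clone 17 of -0.08 and -0.04, and clone 21 was also the lower one for HEATR1, NOP56, UTP20, RRP1B, POLR1A and TSR1. PLK1 had the lowest called value in SW480 (-0.70), and TYMS the highest (-0.38). In HCT116 these were CCNE1 (-0.94) and CDK1 (0.39). Of 10 genes of the MYC network tested, MYCL (-1.69) and the MYC antagonist MXD4 (1.86) were at the ends of the 6 called in SW480. The part of proliferation in the results for the members was not tested.

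Other factors of the same pathway, 123 genes not among the 40, were then examined. Of 122 tested, 1 was called lower and none higher in HT29, 20 lower and 3 higher in HCT116, and 42 lower and 10 higher in SW480. Over all genes tested, the lines in the same order had 0.476%, 5.93% and 22.1% called lower, and 2.08%, 8.05% and 26.1% called higher. The 122 genes had median log2 fold changes of -0.09, -0.25 and -0.13, each between the median of the members and that of all genes. The call in HT29 was NAT10, the acetyltransferase of small subunit rRNA. It counted 5145 and 5175 in WT clone 11, 5409 and 4725 in WT clone 40, 2607 and 3008 in KO clone 28 and 3649 and 3038 in KO clone 38. KO and WT libraries did not overlap (-0.74 ± 0.14, adjusted p = 0.0331). In SW480 its log2 fold change was -0.52 and in HCT116 -0.37 (adjusted p = 0.000216 and 0.0594).

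By list, 3 of 10 snoRNP partners were called lower in HCT116, from SHQ1 (-0.50) to RUVBL1 (-0.35). In SW480, 2 were called lower, with NAF1 at -0.36, and ZNHIT6 was called higher (0.66). This and the following counts for that line stand beside 22.1% of all genes called lower and 26.1% called higher. Of 18 genes of the RNA polymerase I machinery tested, 3 were called lower in HCT116, from POLR1G (-0.75) to POLR1C (-0.34), and 5 were called lower and 3 higher in SW480, from POLR1G (-0.38) to POLR2L (0.49), a subunit shared with other polymerases. Of 43 small subunit factors, 9 were called lower and 1 higher in HCT116, and 15 lower and 3 higher in SW480. KRR1 was at the low end in HCT116 (-0.77) and DDX52 in SW480 (mean 1811 in WT and 899 in KO, adjusted p = 8.37e-05), whereas RIOK3, a kinase grouped with the RIO family of 40S maturation, was higher in both (0.63 and 0.47). Of 51 large subunit factors, 5 were called lower and 2 higher in HCT116, and 20 lower and 3 higher in SW480. URB1 had the lowest called value in both (-0.57 and -0.89), EIF6 highest in HCT116 (0.47) and SBDS in SW480 (0.49). The last 2 act on the late 60S subunit in the cytoplasm.

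Since MYC and MAX bind the E-box CACGTG and TCF/LEF factors the core ATCAAAG, these letters were searched on both strands in RefSeq promoters of build GRCh38.p14, from 250 bases before to 50 bases after the transcription start. The table held promoters for 34 of the 40 members. An E-box was present for 16 of the 34 (47.1%), and for 8.77% of the 27305 genes in the table. The TCF/LEF core was present for 1 of 34, POLR1A, and for 3.18% of all genes. A match is a description of the letters and not a site of binding. In SW480, 10 of 17 called members with a promoter and 6 of 17 not called had an E-box. In HCT116 it was 5 of 12 called and 11 of 22 not called.

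The following sites show the E-box in capitals for some of the called members that had it. Up to 12 bases are given on either side, read 5′ to 3′ on the strand of the gene. An E-box was also present for MRTO4 and NOP14, called in SW480, and for BYSL, GAR1, GNL3 and PNO1, called in no line by limma. These are not shown. IMP4, RRP9 and NOP2 were called in both HCT116 and SW480, PES1 and EBNA1BP2 in HCT116, and FBL, LYAR, UTP20, WDR43 and DDX21 in SW480.
IMP4 (chr2:130342682-130342711, + strand): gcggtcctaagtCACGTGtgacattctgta
RRP9 (chr3:51941892-51941921, - strand): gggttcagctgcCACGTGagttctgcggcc
NOP2 (chr12:6568242-6568268, - strand): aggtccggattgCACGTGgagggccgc
PES1 (chr22:30591880-30591909, - strand): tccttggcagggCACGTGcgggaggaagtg
EBNA1BP2 (chr1:43172790-43172819, - strand): gatattgttggcCACGTGggatcgaagacc
FBL (chr19:39846356-39846385, - strand): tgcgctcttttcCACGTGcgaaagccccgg
LYAR (chr4:4290068-4290097, - strand): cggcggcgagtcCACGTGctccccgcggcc
UTP20 (chr12:101280083-101280112, + strand): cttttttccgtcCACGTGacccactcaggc
WDR43 (chr2:28894658-28894687, + strand): cgcacggacgaaCACGTGgctgcagcgggg
DDX21 (chr10:68956604-68956633, + strand): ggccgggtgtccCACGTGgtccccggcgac
Most of these sites lie close to the start. The first base of the E-box was at position -5 for RRP9, -10 for UTP20, -31 for DDX21, -64 for LYAR, -203 for IMP4 and -237 for EBNA1BP2, and at 4 for WDR43, 7 for FBL, 14 for PES1 and 36 for NOP2, counted from 1 at the start. A second E-box is at position 16 for IMP4 and, counted from the other of its 2 starts, at position 43 for EBNA1BP2.

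The 250 bases before the start are given for UTP20 and IMP4, as 2 members with an E-box before the start that were called in SW480 and, for IMP4, differed between lines. Capitals mark the E-box.
UTP20 (chr12:101279855-101280104, + strand): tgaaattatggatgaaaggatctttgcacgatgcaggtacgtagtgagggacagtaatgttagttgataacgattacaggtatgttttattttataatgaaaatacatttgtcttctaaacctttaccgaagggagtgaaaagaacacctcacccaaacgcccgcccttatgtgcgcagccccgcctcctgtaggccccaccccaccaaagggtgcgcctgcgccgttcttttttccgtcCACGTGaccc
IMP4 (chr2:130342647-130342896, + strand): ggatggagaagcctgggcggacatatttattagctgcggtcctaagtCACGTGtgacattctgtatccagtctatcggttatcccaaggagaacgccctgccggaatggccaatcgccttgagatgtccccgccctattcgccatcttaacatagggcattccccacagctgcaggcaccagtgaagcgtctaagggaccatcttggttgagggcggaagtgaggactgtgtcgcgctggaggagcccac
The TCF/LEF core of POLR1A, a gene called in no line by limma, lies 117 bases before its start and is shown in capitals in its complementary form.
POLR1A (chr2:86105986-86106015, - strand): tgtcttatatatCTTTGATtgttttcaaaa

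Of the 39 members, 8 (20.5%) carry small nucleolar RNA genes within their bounds, compared with 2.63% of 11958 protein-coding genes tested in HT29. These hosts are DKC1, GNL3, NCL, NOP56, NOP58, PPAN, TSR1 and WDR43. NOP56, for example (chromosome 20, 2633239 to 2639039 in GRCh37, plus strand), holds SNORD86, SNORD110 and SNORA51. In SW480, 6 of the 8 hosts and 14 of the 31 other members were called lower, with medians of -0.45 and -0.21. In HCT116 it was 0 of 8 hosts and 16 of 31 others, with medians of -0.21 and -0.43. The medians in HT29 were -0.26 and -0.20. Over all genes tested, 22.1% were called lower in SW480 and 5.93% in HCT116. All snoRNA host genes tested, members or not, had medians of -0.048 in SW480, -0.051 in HCT116 and -0.072 in HT29. Reads over the exons of host genes do not measure the snoRNAs themselves.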

How the data were processed

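Total RNA of all 24 libraries was prepared with an unstranded poly(A) kit and sequenced as paired reads. Per the labels and the study's methods, the authors used bcl2fastq, STAR 2.7.5b on GRCh37, featureCounts 2.0.1 and DESeq2 2.11.40.6. The deposited values are a normalized signal, gene counts divided by a size factor, which was set over all 24 libraries together. Whole reads were recovered for every value (tolerance 0.1 read), and their totals gave the depth. Tables of the authors' own comparisons, with means, fold changes and p-values, were not used.

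Values were tested with limma 3.58.1 in R 4.3.3 on log2(value + 1), with a mean-variance trend and robust moderation, for genes with at least 10 in at least 4 libraries. P-values were adjusted after Benjamini-Hochberg over all genes tested, and errors are standard errors. P-values measure the spread between libraries, of which 2 always share a clone. The quasi-likelihood test of edgeR 4.0.16 and DESeq2 1.42.0 were run on the recovered reads as alternatives, beside other scalings, pseudocounts and filters, the round as a block, averaged rounds, and each library or clone left out. Tests were checked on simulated data. The simulated libraries were drawn independently, without effects of clone, round or length, so that check cannot show how the tests behave when libraries share a clone.

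Rounds pair the HCT116 libraries, since deviations from the clone means correlated for 6 of 6 pairs of clones (r from 0.18 to 0.37). In HT29, r ran from -0.31 to 0.42 with 2 of 6 pairs over 0.1, and in SW480 from -0.04 to 0.13 with 1 of 6. In these lines the round was taken as only a number, although the highest r in HT29 was above that in HCT116. Exonic lengths and overlaps came from a GENCODE annotation of GRCh37. The members, gene lists and tests were chosen with earlier results of these data known. Named with values per library were the 4 called members with the largest differences in each line (or, with fewer called, the largest not called), NPM1, NCL, FBL and POLR1A, and the 4 members with the smallest adjusted p between lines. Of other genes, CTNNB1, AXIN2, MYC and the highest and lowest called gene of each pathway or context list were named, except for 1 context list, whose result is not reported here. NOP58, NOP56 in HT29 and HCT116, and UTP20 in HCT116 were added after their values were seen.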

Additional observations from a re-analysis of the deposited data

Results flagged for a closer look

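Within each line and genotype, a library was singled out when its gap to the nearest of the 4, divided by their range, exceeded Dixon's 95% critical value, and chance alone singles out about 1 in 20 such groups, of which 90 were examined. In the KO group of HT29, library 38B was singled out for NPM1 (89158 normalized counts against 45136 to 49714 in the other 3) and for RRP9 (3604 against 2326 to 2520). Values of this library fell with exonic length (rho = -0.33 over all genes). In the WT group of HT29, library 11A was singled out for FBL (13678 against 17577 to 18316), and library 11B, whose values also fell with length (rho = -0.30), for RRP9 (2695 against 2099 to 2157). The KO effect differed between HT29 and HCT116 for RRP9 by 0.74 and for IMP4 by 0.60, and between HT29 and SW480 for RRP9 by 0.64, for IMP4 by 0.55, for WDR12 by -0.43 and for MYC by 0.72, on the log2 scale and by limma with an interaction term. The cause of these differences was not tested.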

How the results depend on the processing

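Of the 16 members called in HCT116 all were also called by edgeR and DESeq2, as were all 20 of SW480, and other scalings and pseudocounts kept these calls. With TMM scaling, edgeR called 18 members in HCT116 and 24 in SW480, and DESeq2 called 19 and 24. Added were DDX10 and NCL in HCT116, with UTP20 by DESeq2, and DDX10, GNL3, PNO1 and RRP12 in SW480. Over all genes in either direction, edgeR called 2217 and 7859 and DESeq2 2961 and 8139, beside 2154 and 7857 by limma. With the round as a replicate block, the number of members called was 0, 19 and 18 for HT29, HCT116 and SW480. Over all genes in either direction, it was 223 of 14921, 2457 of 15404 and 7425 of 16325, beside 382, 2154 and 7857 without the block. The block left the differences between lines at 2, 3 and 0. It added the calls of NCL, HEATR1 and UTP20 in HCT116, and it ended those of MYC in HCT116, of NIP7 and NOP14 in SW480 and of AXIN2 in HT29 (adjusted p = 0.0630).

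DESeq2 called 3 members lower in HT29 and 4 members between HT29 and HCT116. With rounds averaged, counts fell to 0 in HCT116, 7 in SW480, 0 between HT29 and HCT116 and 0 between HT29 and SW480, and with the clone as a random effect to 5 in HCT116 and 0 in both comparisons with HT29. The wider filter (at least 1 in 1 library) left 1 between HT29 and SW480. Scaling to the upper quartile gave 1 between HCT116 and SW480 (NOP58), and edgeR gave 1 between WT clones 4 and 5 of SW480.

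With 1 library left out, HCT116 had 6 calls (without WT 6B, where 1338 of 15227 genes were called in either direction) to 21 (without KO 47B, 2481 of 15226). Among the others, it had 7 without KO 44B, 8 without WT 6A, 9 without KO 44A, 10 without KO 47A and 11 without WT 4B. There were 1 (without HCT116 KO 44B, IMP4) to 3 calls between HT29 and HCT116, and 0 to 1 between HCT116 and SW480, the 1 being UTP15 without HCT116 KO 47B and WDR3 without HT29 KO 38B. Leaving out a clone gave 0 in HCT116 without KO 44 or WT 6, and 10 in SW480 without WT 4. Between HT29 and HCT116 it gave 0 without HCT116 KO 44, 1 without HCT116 WT 6 or HT29 WT 40, and 5 without HT29 KO 28. Between HT29 and SW480 it gave 5 without HT29 KO 28 and 1 without SW480 KO 21 or WT 4, and between HCT116 and SW480 it gave 1 without HCT116 KO 47, HCT116 WT 6 or HT29 KO 28, and 2 without HT29 KO 38. Some HT29 values changed sign: NPM1 was 0.016 without KO clone 28, FTSJ3 was -0.21 without KO clone 38, and MYC ran from -0.22 to 0.030, the latter without KO 38B. The cause was not tested. Each genotype rests on 2 clones of each line.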
